A study of Mus musculus with 12 samples.

Results

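Chemokine ligands and chemokine receptors were followed as a gene family in mouse retina, 7 days after an injection into the vitreous. The members were all probes of the array, control spots aside, whose accession maps to a mouse symbol that starts with Ccl, Cxcl, Ccr or Cxcr and a digit. Of 39429 probes, 60 met this rule and stood for 51 genes, out of 59 such symbols in the RefSeq gene table. Of these, 52 probes for 44 genes passed the scanner's background test in either channel on 3 or more of the 12 arrays and are reported, as 44 of 24561 genes tested. Ccl1, Ccl20, Ccl22, Ccl26, Cxcl15, Cxcl17 and Cxcr5 did not pass, and neither did a second probe of Ccr8. The nearest to passing was Cxcr5, above background on 2 arrays, and the lowest that passed were Ccl11, Ccl24, Ccr1 and Ccr4, each on 5 arrays. Some members passed chiefly through the pools in which they were high, so counts over the 44 members describe the genes that passed, not the whole family.

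Male C57BL/6 mice, 5 weeks old and 12 to a group, had phosphate-buffered saline (PBS) or particles injected into the right eye. The 4 particle groups were gold and silicate, each at diameters of 20 nm and 100 nm, every group with 3 tubes of 4 pooled retinas, and PBS eyes were the control for all of them. The PBS channel of the silicate arrays carries strain labels that count up from C57BL/7, whereas the design text names C57BL/6 for all mice. The treatment labels write the diameters with the unit nM. Each array set a particle pool, in the dye Cy5, against a PBS pool, in Cy3, with no exchange of dyes, and each of 3 slides carried 1 array of each group. A value is the log2 ratio of particle over PBS, so a value of 1 is a doubling, and a level is the normalized log2 intensity of 1 channel. Retinal identity was clear in every channel, with a summed level of 8 rod markers, among them Sag, of 19.57 to 20.41. It was 19.57 to 19.66 in the PBS channel of slide 1. The median log2 ratio of these markers was 0.51 to 0.68 on slide 1 and -0.78 and -0.79 on the silicate arrays of slide 3. The part of this shift in the chemokine values was not tested.

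Chemokines are small secreted proteins that bind G-protein-coupled receptors on leukocytes and direct their migration. Inflammatory chemokines are switched on in injured or infected tissue by factors such as NF-kappa B and by interferon, while homeostatic chemokines are made steadily and guide lymphocytes through lymphoid organs and skin. In the injured retina, microglia, Müller glia and arriving monocytes are known sources, and Ccl2 is the best known signal for monocyte entry.

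The inflammatory members differed between slides, and within slide 3 between gold and silicate. The log2 ratio was under -1 on all 4 arrays of slide 1 for 21 of 44 members (47.7%), against 4.57% of all genes. It was over 1 on both silicate arrays of slide 3 for 21 members (47.7%), against 6.74% of all genes, and 16 members (36.4%) met both rules, against 3.48%. No member was under -1 on both silicate arrays of slide 3 (0.334% of all genes were). On the gold arrays of slide 3, Ccl5 alone was beyond 1 in size on both arrays, in both cases lower than PBS (0.684% of all genes), and on slide 2 no member was beyond 1 on all 4 arrays (0.208% of all genes). The median over the 44 members was between -1.14 and -0.97 on slide 1, between 0.10 and 0.17 on slide 2, and on slide 3 it was 0.03 and -0.08 with gold and 1.13 and 2.13 with silicate, the 20 nm array first each time. Over all genes tested the median stayed between -0.02 and 0.01 on every array.

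**Figure D1:**
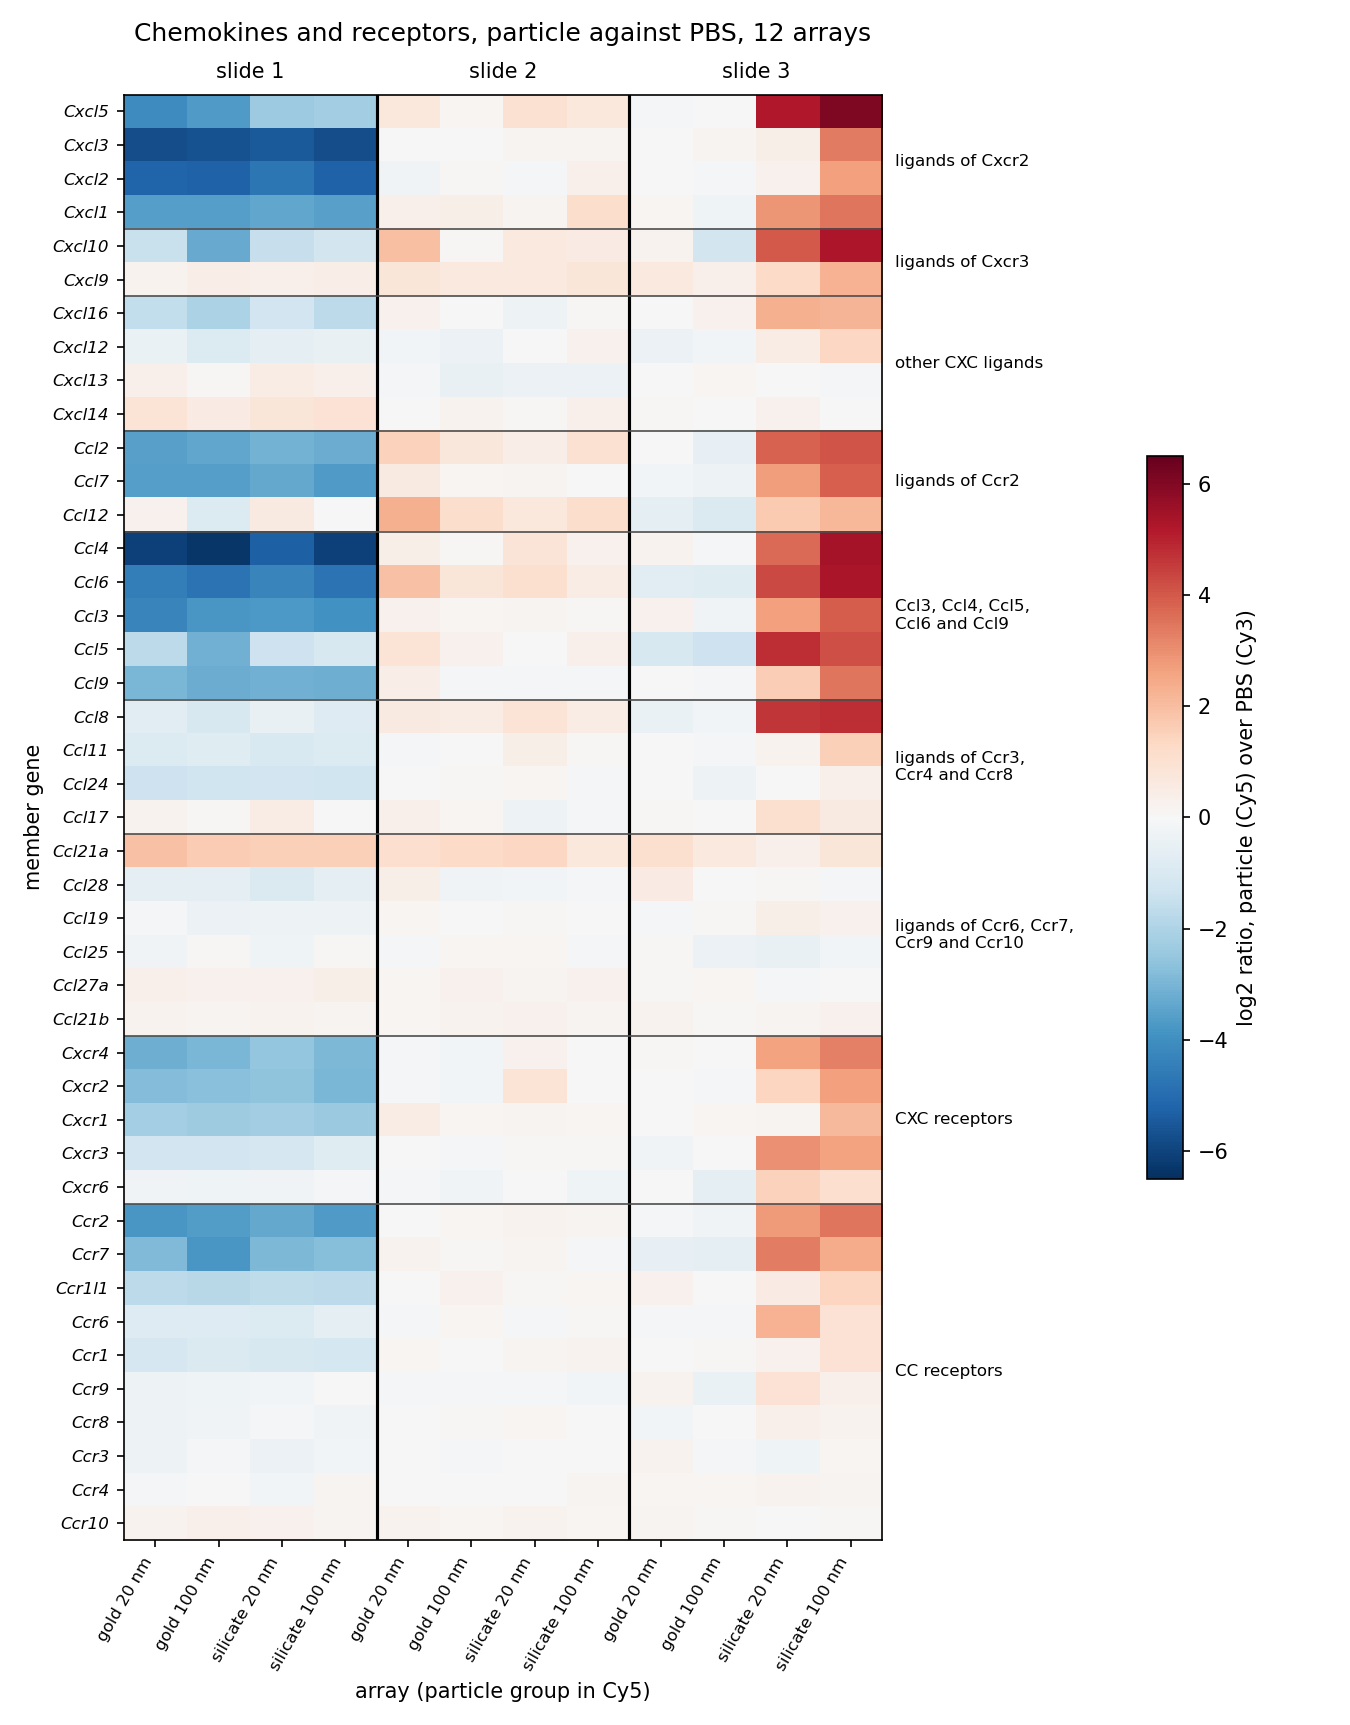
Log2 ratio of particle over PBS for 43 of the 44 members (rows, grouped by receptor use and sorted by range) on the 12 arrays (columns, grouped by slide). Blue cells are lower and red cells higher in the particle pool. Most inflammatory ligands are blue across slide 1, near 0 on slide 2 and on the gold arrays of slide 3, and red on the silicate arrays of slide 3, where the medians over members were 1.13 and 2.13. Exceptions on slide 2 include Ccl12, Cxcl10, Ccl6 and Ccl2 on the gold 20 nm array, at 2.29, 1.97, 1.89 and 1.52.

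The single channels show which pools carried these differences. In Cy3, the PBS level on slide 1 was more than 1 above the mean PBS level of slides 2 and 3 for 24 of 44 members, against 6.49% of all genes. In Cy5, the silicate pools of slide 3 were on average more than 1 above the gold pools of the same slide for 26 members, against 7.64% of all genes, and 20 members met both, against 5.25%. Across the 44 members these differences had a Pearson r of 0.68, a description only, since the genes share pools and arrays. Fewer cells of a type and less RNA per cell cannot be told apart in such pooled tissue. Which PBS tube was on which array is not stated in the labels, and p-values measure the spread between arrays that may share a PBS tube.

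**Figure D2:**
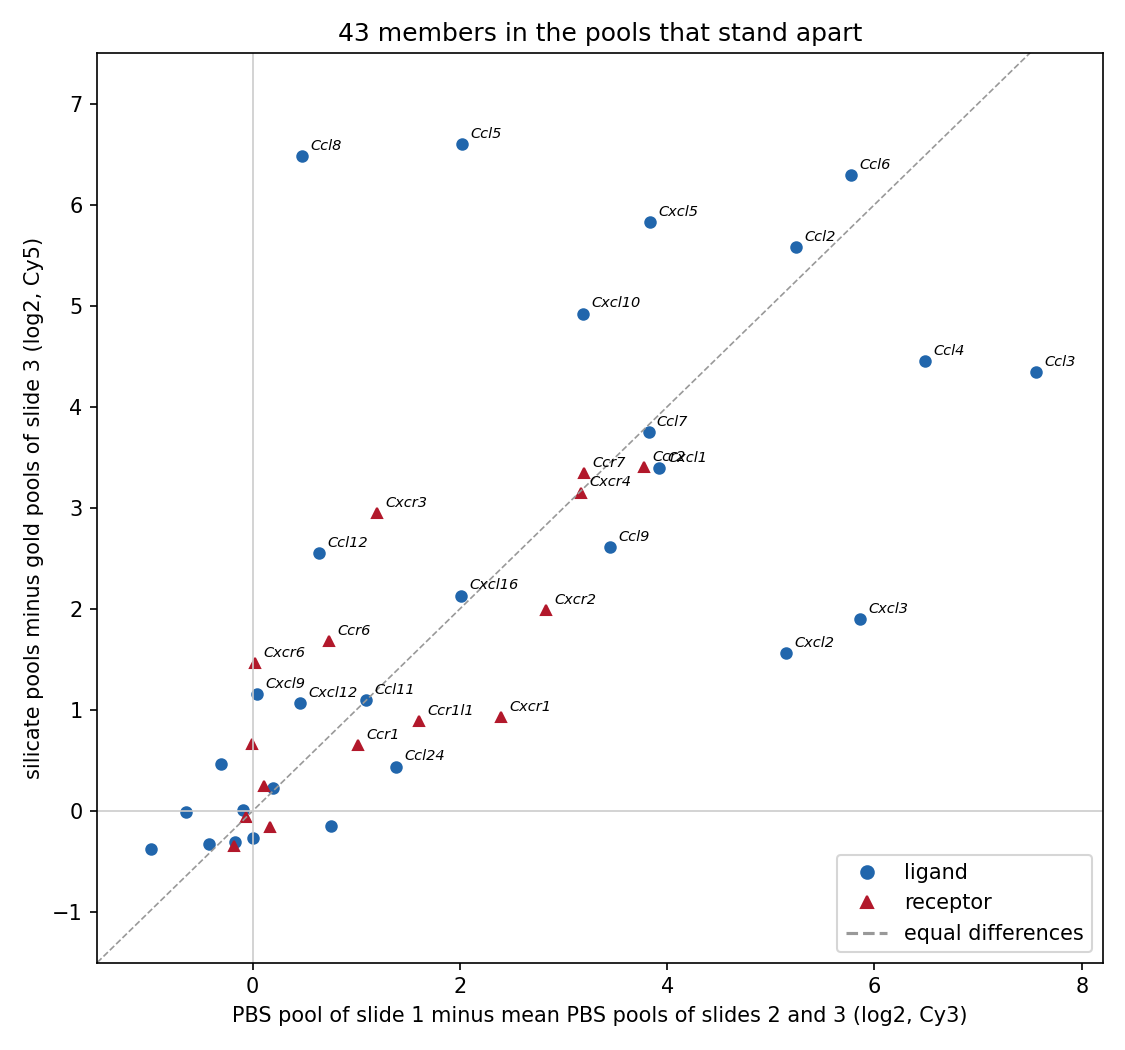
Each point is 1 of 43 of the 44 members, with its PBS level on slide 1 minus its mean PBS level on slides 2 and 3 (x axis, log2, Cy3) against its level in the silicate pools minus the gold pools of slide 3 (y axis, log2, Cy5). Circles are ligands, triangles are receptors and the dashed line marks equal differences. Ccl3, Ccl4, Cxcl2 and Cxcl3 lie below the line, and Ccl8, Ccl5, Cxcl5, Cxcl10 and Cxcr3 above it.

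Markers of macrophages, microglia and neutrophils stood apart on the same arrays. T and NK cell markers did so mainly on the silicate arrays of slide 3. Over all genes, 4.57% met the rule on slide 1 and 6.74% that on slide 3. Of 17 macrophage and microglia markers, 11 were under -1 on all 4 arrays of slide 1, 15 were over 1 on both silicate arrays of slide 3, and 2 (Itgam and P2ry12) stayed within 1 on all 12 arrays. Their summed level in Cy3 was 18.03 to 18.08 in the PBS pools of slide 1, 15.46 to 15.62 on slide 2 and 15.70 to 15.93 on slide 3. In Cy5 it ranged from 15.77 to 16.04 with gold 20 nm, 15.40 to 15.92 with gold 100 nm, 16 to 18.59 with silicate 20 nm and 15.74 to 18.88 with silicate 100 nm. Of 11 neutrophil markers, 8 met the rule on slide 1 and 6 that on slide 3, with a summed level of 18.70 to 18.82, 16.20 to 16.49 and 16.59 to 17.07 in the PBS pools of slides 1 to 3. In the particle pools the neutrophil sum was 16.73 to 17.00, 16.86 to 17.27, 17.18 to 18.29 and 17.02 to 18.20, with gold and then silicate, the smaller diameter first. Of 12 T and NK cell markers, 1 (Klrd1) met the rule on slide 1 and 7, among them Cd3d and Gzma, that on slide 3. Their summed level was 12.79 to 12.88 in the PBS pools of slide 1, 12.85 to 12.97 and 12.72 to 12.86 in those of slides 2 and 3, 12.79 to 12.97 and 12.73 to 12.89 with gold and 12.77 to 13.78 and 12.81 to 13.53 with silicate. A sum follows its brightest markers. The median PBS level of the 12 T and NK cell markers was 8.19 on slide 1 and 6.66 and 6.87 on slides 2 and 3. The macrophage and microglia, neutrophil, and T and NK cell markers given are those that passed the filter, of 18, 13 and 14 listed. Of 6 B and plasma cell markers tested, 1 met both rules and 4 stayed within 1 on all 12 arrays. Of 4 dendritic cell markers tested, 2 met both rules and 2 stayed within 1. The dendritic cell sum was 16.56 to 16.78, 16.51 to 16.70 and 16.69 to 16.92 in PBS of slides 1 to 3. It ranged from 16.95 to 17.46 in the particle pools. The median PBS level of the 4 dendritic cell markers was 9.16 on slide 1 and 7.44 and 7.67 on slides 2 and 3. The part of these cells in the chemokine values was not tested.

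The ligands of Cxcr2, which draw neutrophils, were all under -1 on slide 1, and Cxcl2, Cxcl3 and Ccl4 were the lowest members there. Below, the 4 values of a member on a slide are given for gold and then for silicate, the smaller diameter first. Cxcl2 read -5.19, -5.27, -4.72 and -5.25 on slide 1, -0.21, 0.09, -0.14 and 0.32 on slide 2, and -0.04, -0.15, 0.27 and 2.66 on slide 3. Its PBS level was 11.40 ± 0.06 (SD, n = 4 arrays) on slide 1 and 6.21 ± 0.13 and 6.28 ± 0.04 on slides 2 and 3, where it was not well above background. It was not above background in any gold pool. Of the silicate pools, 3 were above background, and the highest was the 100 nm pool of slide 3, at 8.89, against 6.58 in the 20 nm pool. Cxcl3, a close relative of Cxcl2, read -5.76, -5.65, -5.48 and -5.76 on slide 1, 0.03, 0, 0.18 and 0.17 on slide 2, and -0.05, 0.16, 0.40 and 3.40 on slide 3. On slide 1 no particle pool was above background, and the PBS level was at least 47.1-fold higher, a bound against the lowest signal that counts as above background. Like Cxcl2, it separated the silicate pools of slide 3, at 6.51 for 20 nm and 9.41 for 100 nm.

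Cxcl1 and Cxcl5 followed the same slides but were high in both silicate pools of slide 3. Cxcl1, a neutrophil chemoattractant made by many tissue cells, read -3.57, -3.60, -3.37 and -3.54 on slide 1, 0.35, 0.39, 0.16 and 1.15 on slide 2, and 0.11, -0.27, 2.87 and 3.46 on slide 3. In both silicate pools of slide 3 it was at least 8.97-fold above PBS on average, and PBS there was not above background. Cxcl5, a neutrophil chemoattractant typical of epithelium and stroma, read -4.07, -3.68, -2.35 and -2.28 on slide 1, 0.68, 0.11, 0.98 and 0.68 on slide 2, and -0.13, -0.02, 5.23 and 6.08 on slide 3. On each silicate array of slide 3 it had the highest log2 ratio of the 44 members, and on average it was at least 50.4-fold above PBS. Cxcl5 was higher in the silicate than in the gold pools on slide 1 too, by 1.56 on average, and on slide 2 by 0.44. On the silicate arrays of slide 2, where the 4 ligands lay between -0.14 and 1.15, the 11 neutrophil markers had a median log2 ratio of 0.65 and 0.41, and their part in these values was not tested.

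The stretch before the start of transcription was read for 33 of the 44 members with an entry in the RefSeq promoter table of GRCm38.p6, since many inflammatory members differed between pools together. Members without an entry could not be searched, among them Ccl2, Ccl4, Ccl5, Ccl7, Cxcl5, Cxcl16 and Ccr7, so nothing is known here of their matches. The consensus site of NF-kappa B was searched on both strands in the 250 bases before each start, and so were 2 runs of GAAA parted by any 2 bases, the core of the interferon-stimulated response element. An NF-kappa B match was found for 7 members (21.2%), namely Ccl9, Ccr3, Ccr6, Cxcl1, Cxcl2, Cxcl3 and Cxcl10, and in 3.9% of 32851 promoter windows. The GAAA pair was found for 3 members, Ccl19, Cxcl10 and Cxcl14 (9.09%), and in 2.98% of windows. A gene may have more than 1 window, and a match is a description of letters, not a site in use. The sequences of Cxcl2 and Cxcl3 are shown because these genes differed between pools alike. Those of Cxcl10 and Cxcl9 are shown because both bind Cxcr3 but their tested probes differed on slide 1. The dimmer Cxcl9 probe read -1.15, -1.22, -1.08 and -0.66 there, negative like Cxcl10, so the difference depends on the probe. Each runs 5′ to 3′ on the gene's strand and ends just before the start, with matches in capitals.
Cxcl2, chr5:90903649-90903898, plus strand: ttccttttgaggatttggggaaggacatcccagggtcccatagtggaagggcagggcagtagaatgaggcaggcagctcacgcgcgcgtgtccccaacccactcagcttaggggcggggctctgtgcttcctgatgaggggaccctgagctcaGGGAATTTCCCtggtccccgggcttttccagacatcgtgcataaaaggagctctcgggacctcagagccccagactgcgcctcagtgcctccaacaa
Cxcl3, chr5:90785851-90786100, plus strand: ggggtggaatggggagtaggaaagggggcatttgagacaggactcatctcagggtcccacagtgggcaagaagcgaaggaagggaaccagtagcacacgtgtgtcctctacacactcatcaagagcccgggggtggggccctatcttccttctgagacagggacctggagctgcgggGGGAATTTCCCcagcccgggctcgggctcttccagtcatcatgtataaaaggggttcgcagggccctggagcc
Cxcl10, chr5:92348890-92349139, minus strand: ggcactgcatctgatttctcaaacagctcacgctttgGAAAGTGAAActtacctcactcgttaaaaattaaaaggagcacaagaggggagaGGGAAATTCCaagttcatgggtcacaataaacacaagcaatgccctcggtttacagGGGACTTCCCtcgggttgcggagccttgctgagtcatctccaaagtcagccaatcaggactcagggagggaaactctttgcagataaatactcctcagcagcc
Cxcl9, chr5:92328080-92328329, minus strand: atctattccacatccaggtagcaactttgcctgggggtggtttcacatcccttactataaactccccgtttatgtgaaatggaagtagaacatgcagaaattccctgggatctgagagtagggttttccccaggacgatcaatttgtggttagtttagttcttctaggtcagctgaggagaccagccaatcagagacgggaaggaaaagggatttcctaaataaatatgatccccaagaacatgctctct
The capitals in Cxcl2 and Cxcl3 are an NF-kappa B match that reads on both strands and overlaps itself, from 97 to 87 bases before the start in Cxcl2 and from 73 to 63 in Cxcl3. Cxcl10 holds 1 GAAA pair, from 213 to 204 bases before the start, and 2 NF-kappa B matches, from 159 to 150 and from 103 to 94. Neither of these letter patterns is in the Cxcl9 window.

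**Figure D3:**
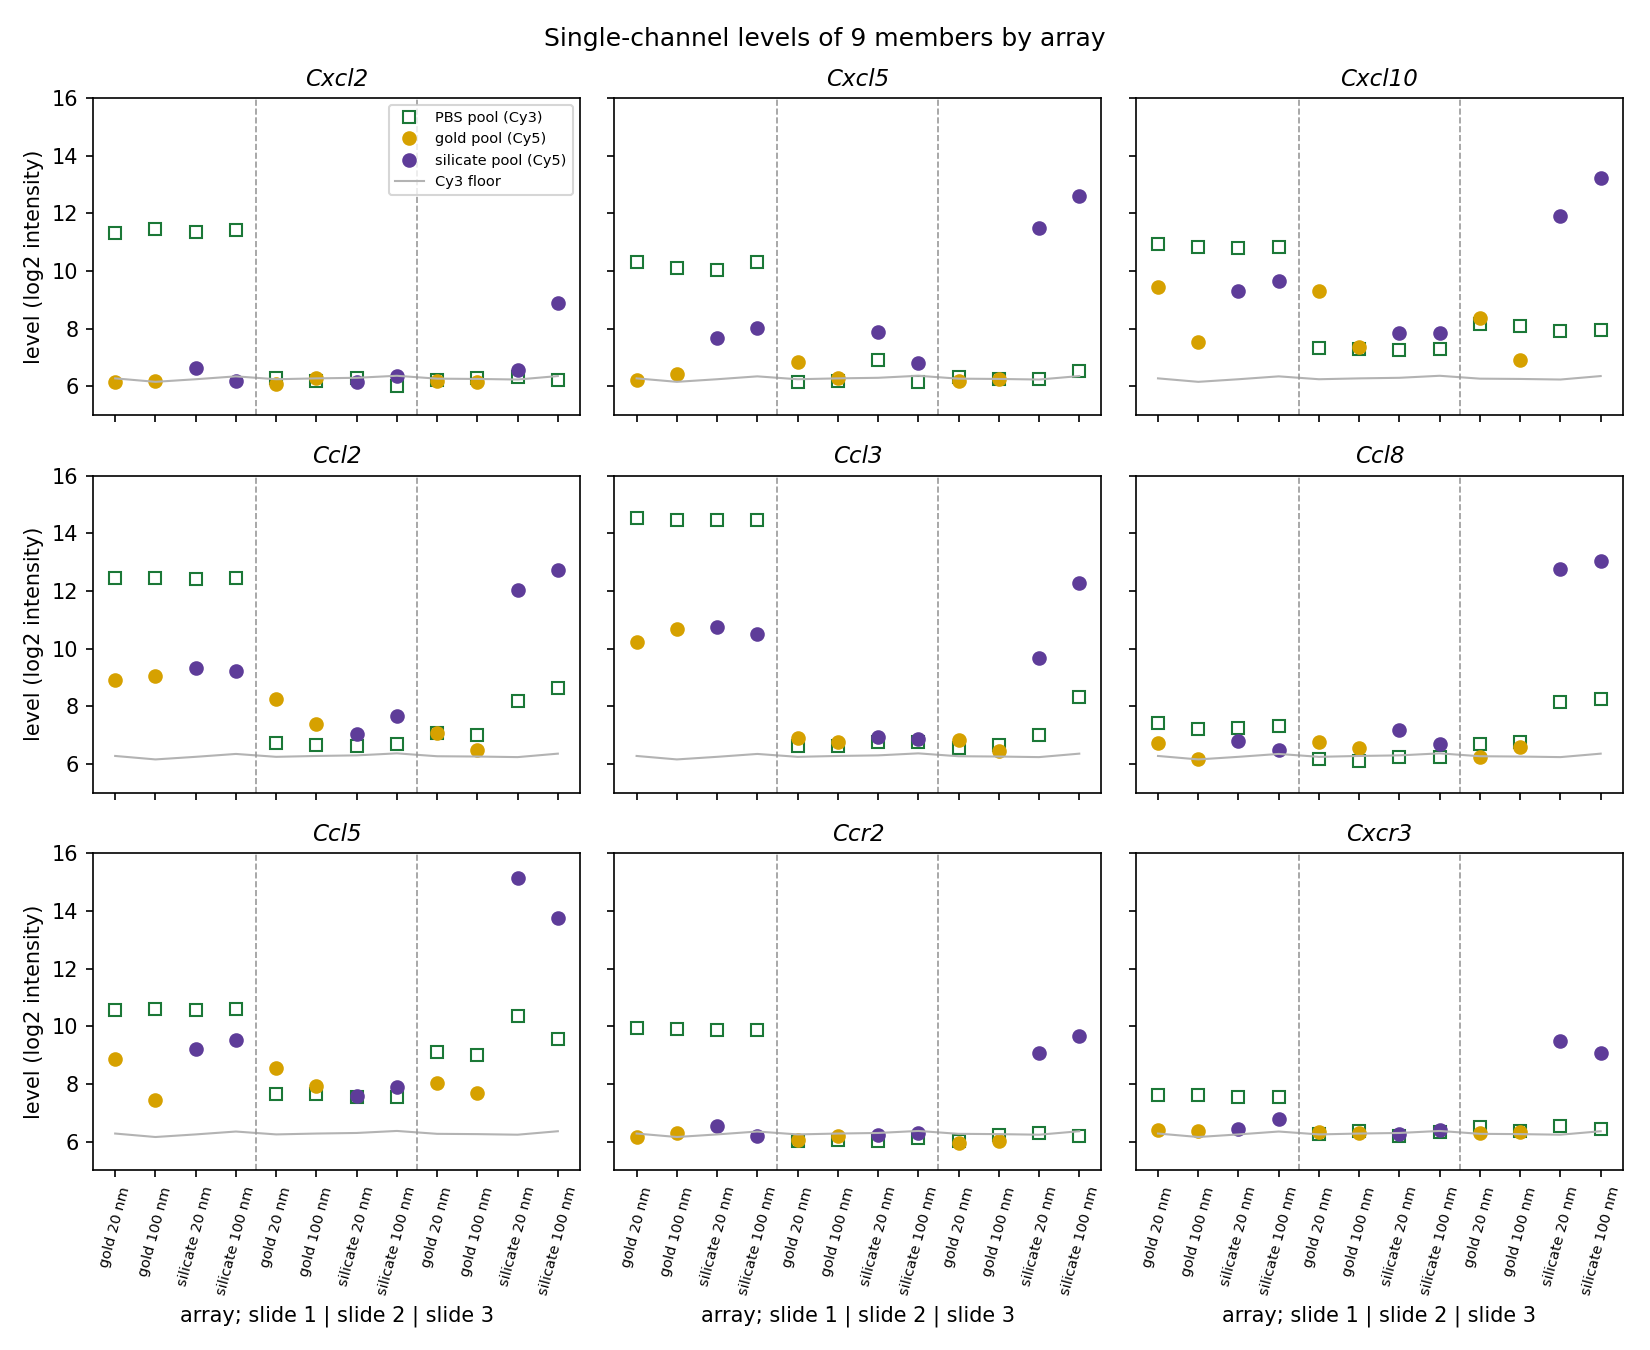
Single-channel level (log2 intensity, y axis) of 9 members on the 12 arrays (x axis, grouped by slide), with the PBS pool in Cy3 as open squares and the gold and silicate pools in Cy5 as filled circles. The grey line is the lowest Cy3 level of a probe well above background. Ccl3 in PBS stands at 14.48 on slide 1 and 6.69 on slide 2, and Ccl8 stands at 12.76 and 13.05 in the silicate pools of slide 3 but at 7.31 in the PBS pools of slide 1.

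The ligands of Cxcr3, which are induced by interferon gamma and attract T and NK cells, stood higher in the silicate pools of slide 3 than in PBS of slide 1. Cxcl10 read -1.47, -3.30, -1.51 and -1.18 on slide 1, 1.97, 0.06, 0.62 and 0.55 on slide 2, and 0.21, -1.17, 4 and 5.28 on slide 3. Its level was 10.86 ± 0.05 in PBS of slide 1 and 11.91 and 13.23 in the silicate pools of slide 3. It also varied among particle pools elsewhere, with 7.55 for gold 100 nm on slide 1 against 9.3 to 9.66 in the 3 other pools of that slide. For Cxcl9, the brighter of 2 probes read 0.23, 0.44, 0.35 and 0.44 on slide 1, 0.81, 0.62, 0.64 and 0.78 on slide 2, and 0.66, 0.31, 1.23 and 2.25 on slide 3, above 0 on all 12 arrays. The dimmer probe read -1.15, -1.22, -1.08 and -0.66 on slide 1, -0.23, -0.02, -0.01 and -0.23 on slide 2, and -0.48, -0.42, 3.19 and 4.34 on slide 3, so that the probes gave opposite signs on slides 1 and 2. They gave the same sign only on the silicate arrays of slide 3, where the dimmer probe was 13.6-fold and the brighter 3.34-fold above PBS on average.

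Among the ligands of Ccr2, which draw monocytes, Ccl2 and Ccl7 met both slide rules and Ccl12 only that on slide 3. Ccl2 read -3.54, -3.39, -3.07 and -3.23 on slide 1, 1.52, 0.74, 0.43 and 0.98 on slide 2, and 0.02, -0.51, 3.83 and 4.09 on slide 3, with a PBS level of 12.43 ± 0.02 on slide 1, 6.66 ± 0.05 on slide 2 and 7.73 ± 0.81 on slide 3. In Cy3 on slide 3 the silicate arrays read 8.2 and 8.62 and the gold arrays 7.06 and 7.02, so its PBS level there is uncertain. Ccl3 and Ccl8 differed in the same way by more than 1 on average. Ccl5, Ccl6 and the dimmer Cxcl9 probe did so by 0.9, 0.7 and 0.55. The PBS levels of all of these on slide 3 are uncertain too. Ccl7 read -3.57, -3.58, -3.32 and -3.67 on slide 1, 0.59, 0.14, 0.20 and 0.03 on slide 2, and -0.17, -0.32, 2.72 and 3.91 on slide 3. PBS on slide 1 was 11.6-fold above the particle pools, in which it was above background on all 4 arrays. Ccl12, a mouse chemokine next to Ccl2 in function, read 0.27, -0.90, 0.58 and -0.04 on slide 1, 2.29, 1.16, 0.71 and 1.15 on slide 2, and -0.62, -0.94, 1.70 and 2.14 on slide 3. Its PBS level on slide 1 was 8.50 ± 0.04, close to the 8.45 ± 0.10 on slide 3, and it was lower on slide 2 at 7.27 ± 0.06, the only slide on which all 4 particle pools were above PBS.

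The CC ligands Ccl3, Ccl4, Ccl5, Ccl6 and Ccl9, described as 1 role, all met both slide rules. Ccl3 and Ccl4 are the macrophage inflammatory proteins, released by activated macrophages and microglia. Ccl3 read -4.30, -3.79, -3.71 and -3.93 on slide 1, 0.30, 0.12, 0.19 and 0.09 on slide 2, and 0.28, -0.23, 2.67 and 3.95 on slide 3, and Ccl4 read -6.09, -6.33, -5.33 and -6.08 on slide 1, 0.38, 0.09, 0.85 and 0.30 on slide 2, and 0.24, -0.10, 3.67 and 5.43 on slide 3. In PBS of slide 1, Ccl3 was at 14.48 ± 0.04 and Ccl4 at 12.95 ± 0.03, and PBS exceeded the particle pools 15.3-fold for Ccl3 and 62.2-fold for Ccl4. The Cy5 level of Ccl3 was between 10.24 and 10.74 in the particle pools of slide 1 and 6.84 and 6.45 in the gold pools of slide 3. On slide 1 the PBS channel of the same spots was the brighter, at 14.48. On the silicate 100 nm array of slide 3, Cy5 was at 12.29 and PBS at 8.34. Whether the brighter channel raised the dimmer one was not tested, so these dimmer levels and the fold values drawn from them are uncertain. Ccl5, released by T cells, NK cells and activated tissue, read -1.70, -3.14, -1.34 and -1.06 on slide 1, 0.87, 0.26, 0 and 0.33 on slide 2, and -1.06, -1.34, 4.82 and 4.19 on slide 3. It reached 15.15 in the silicate 20 nm pool and 13.76 in the silicate 100 nm pool of slide 3, against 10.58 ± 0.03 in PBS of slide 1. Ccl5 was also the only ligand of this role to be higher in the 20 nm than in the 100 nm silicate pool. Ccl6, a chemokine of macrophages in rodents, read -4.50, -4.79, -4.29 and -4.80 on slide 1, 1.89, 0.81, 1.03 and 0.48 on slide 2, and -0.73, -0.81, 4.30 and 5.33 on slide 3, and Ccl9, found in rodents too, was -2.99 or lower on slide 1, within 0.41 of 0 on slide 2 and 1.59 and 3.47 on the silicate arrays of slide 3.

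The ligands of Ccr3, Ccr4 and Ccr8 did not share a single pattern. Ccl8, a monocyte chemoattractant, read -0.69, -1.04, -0.47 and -0.83 on slide 1, 0.59, 0.47, 0.91 and 0.47 on slide 2, and -0.42, -0.19, 4.63 and 4.80 on slide 3, and in the silicate pools of slide 3 it was 26.2-fold above PBS on average. In PBS of slide 1 it was at 7.31 ± 0.09, above background on 4 of 4 arrays. The eosinophil chemoattractant Ccl24 stood apart on slide 1 instead, with -1.34, -1.32, -1.26 and -1.27 on slide 1, 0.02, 0.09, 0.14 and -0.13 on slide 2, and -0.03, -0.31, 0.05 and 0.34 on slide 3. PBS of slide 1 exceeded the particle pools at least 2.43-fold, and Ccl24 was not above background in any particle pool. Ccl11 (eotaxin) read -0.91, -0.78, -0.97 and -0.88 on slide 1, -0.07, 0.01, 0.40 and 0.06 on slide 2, and -0.01, -0.06, 0.24 and 1.54 on slide 3, with only the silicate 100 nm pool of slide 3 above background among particle pools. Ccl17, a ligand of Ccr4, stayed between -0.35 and 1.03, reading 0.24, 0.10, 0.50 and 0.05 on slide 1, 0.34, 0.15, -0.35 and -0.14 on slide 2, and 0.06, 0.03, 1.03 and 0.59 on slide 3.

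The homeostatic ligands of Ccr6, Ccr7, Ccr9 and Ccr10 were the steadiest role, with 5 of 6 within 1 of 0 on all 12 arrays. Of all 44 members 12 stayed within 1, and no share over all genes was computed for such counts. Ccl21a, which guides dendritic cells and T cells through Ccr7, was the exception among the 6, at 1.90, 1.64, 1.54 and 1.56 on slide 1, 1.07, 1.23, 1.34 and 0.70 on slide 2, and 1.02, 0.63, 0.33 and 0.80 on slide 3. It was above PBS on all 12 arrays, and it was the only member over 1 on all 4 arrays of slide 1 (0.31% of all genes). Its PBS level was 8.74 ± 0.03, 9.52 ± 0.07 and 9.93 ± 0.12 on slides 1 to 3, while the particle pools lay between 10.14 and 10.94. Ccl21b, a near-identical copy, was bright and flat, with 0.22, 0.19, 0.24 and 0.17 on slide 1, 0.15, 0.25, 0.29 and 0.17 on slide 2, and 0.22, 0.08, 0.19 and 0.27 on slide 3. The mouse genome holds several copies of Ccl21, so a probe may read more than 1 of them and the assignment to Ccl21a or Ccl21b is uncertain. Ccl27a, a skin chemokine for Ccr10 with a close copy in Ccl27b, read 0.34, 0.26, 0.30 and 0.39 on slide 1, 0.11, 0.26, 0.18 and 0.26 on slide 2, and 0.06, 0.15, -0.15 and -0.03 on slide 3. Its 3 other kept probes had means over the 4 groups of 0.13, 0.08 and -0.03, against 0.18 for the probe tested. Ccl19, the second ligand of Ccr7, read -0.15, -0.36, -0.32 and -0.34 on slide 1, 0.14, 0.02, 0.06 and 0.03 on slide 2, and -0.08, 0.07, 0.37 and 0.30 on slide 3. A dimmer probe of Ccl19 gave 1.76 and 1.54 on the silicate arrays of slide 3, where the tested probe gave 0.37 and 0.30. The probes of Ccl19 and of Ccl27a thus disagree, and the tested probe is the brightest in each case. Ccl25, the thymic and gut ligand of Ccr9, read -0.22, 0.06, -0.29 and 0.09 on slide 1, -0.11, 0.13, 0.12 and -0.06 on slide 2, and 0.08, -0.38, -0.48 and -0.20 on slide 3. Ccl28, a mucosal ligand of Ccr10, read -0.60, -0.64, -0.92 and -0.62 on slide 1, 0.37, -0.23, -0.18 and -0.06 on slide 2, and 0.54, 0.04, 0.08 and -0.08 on slide 3.

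Of the remaining CXC ligands, Cxcl16 met both slide rules, as did the dimmer probe of Cxcl12, and Cxcl13 and Cxcl14 stayed within 1 of 0 on all 12 arrays. Cxcl16, the ligand of Cxcr6, read -1.58, -2.06, -1.25 and -1.69 on slide 1, 0.30, -0.02, -0.33 and 0.07 on slide 2, and -0.01, 0.28, 2.33 and 2.20 on slide 3, and its PBS level was 11.46 ± 0.02 on slide 1 and 9.56 ± 0.06 and 9.32 ± 0.05 on slides 2 and 3. Cxcl12, the steadily made ligand of Cxcr4, read -0.45, -0.88, -0.66 and -0.46 on slide 1, -0.18, -0.38, 0.02 and 0.30 on slide 2, and -0.37, -0.19, 0.50 and 1.34 on slide 3 at its brighter probe. A dimmer probe of Cxcl12 lay further from 0 on slide 1 and on the silicate arrays of slide 3, with -1.56, -1.65, -1.21 and -1.52 on slide 1, 0.67, 0.15, 0.13 and 0.21 on slide 2, and -0.13, -0.09, 2.05 and 2.05 on slide 3. Cxcl13, the B cell chemoattractant, read 0.34, 0.09, 0.50 and 0.31 on slide 1, -0.06, -0.50, -0.40 and -0.40 on slide 2, and 0.05, 0.15, -0.03 and -0.14 on slide 3, and Cxcl14, a bright homeostatic chemokine, read 0.91, 0.54, 0.81 and 0.92 on slide 1, 0.02, 0.21, 0.08 and 0.32 on slide 2, and 0.10, 0.03, 0.28 and -0.04 on slide 3. Cxcl14 was thus above PBS on all 4 arrays of slide 1, where its PBS level was 11.94 ± 0.05 against 12.60 ± 0.03 and 12.55 ± 0.04 on slides 2 and 3.

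Among receptors, 7 of 16 met the rule on slide 1 and 7 that on slide 3, with 5 in common. Ccr2, the receptor of inflammatory monocytes, read -3.77, -3.61, -3.35 and -3.69 on slide 1, 0.04, 0.14, 0.21 and 0.19 on slide 2, and -0.08, -0.21, 2.79 and 3.48 on slide 3. It was above background only in PBS of slide 1, at 9.90 ± 0.03, and in the silicate pools of slide 3, at 9.08 and 9.67. Ccr7, found on mature dendritic cells and naive T cells, read -2.88, -3.77, -2.93 and -2.77 on slide 1, 0.21, 0.07, 0.19 and -0.07 on slide 2, and -0.51, -0.66, 3.31 and 2.40 on slide 3. Both receptors were low in every particle pool relative to PBS on slide 1 and high in both silicate pools of slide 3. The level of Ccr7 differed by -1.1 between the silicate pools of slide 3, 100 nm minus 20 nm, and Ccr6, the receptor of Ccl20, had log2 ratios of 2.25 with 20 nm and 0.94 with 100 nm there. Ccr1l1, a rodent relative of Ccr1, read -1.72, -1.80, -1.65 and -1.71 on slide 1, -0.04, 0.27, 0.06 and 0.12 on slide 2, and 0.29, 0.03, 0.55 and 1.42 on slide 3.

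Cxcr4, the receptor of Cxcl12, read -3.19, -2.96, -2.53 and -2.94 on slide 1, -0.07, -0.17, 0.27 and -0.05 on slide 2, and 0.09, 0.01, 2.60 and 3.25 on slide 3. Cxcr2, the neutrophil receptor of the ligands above, read -2.80, -2.72, -2.63 and -2.96 on slide 1, -0.13, -0.17, 0.88 and 0.05 on slide 2, and 0.03, -0.12, 1.39 and 2.66 on slide 3, and Cxcr1, its relative, read -2.20, -2.30, -2.27 and -2.40 on slide 1, 0.46, 0.14, 0.20 and 0.14 on slide 2, and 0, 0.13, 0.20 and 2.12 on slide 3. Cxcr1 was thus high in the silicate 100 nm pool of slide 3 but at background in the 20 nm pool. Cxcl2 and Cxcl3 were also higher in the 100 nm pool, but in the 20 nm pool they were above background, at 6.58 and 6.51. Cxcr3, on T and NK cells, read -1.22, -1.22, -1.09 and -0.77 on slide 1, 0.04, -0.06, 0.06 and 0.06 on slide 2, and -0.21, -0.04, 2.96 and 2.62 on slide 3, with a level of 9.49 and 9.06 in those pools and 7.58 ± 0.03 in PBS of slide 1. Both probes of Cxcr6, a receptor of memory T and NK cells, stayed between -0.66 and -0.02 on slides 1 and 2 and on the gold arrays of slide 3, and were 1.49 and 1.07 (brighter) and 1.49 and 0.98 (dimmer) on the silicate arrays of slide 3. Ccr3, Ccr4, Ccr8, Ccr9 and Ccr10 stayed within 1 of 0 on all 12 arrays, and Ccr1 ranged from -1.14 to 0.96.

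The silicate pools of slide 3 differed from each other, with 1 array each and therefore no test. In Cy5, 14 of 44 members were more than 1 higher in the 100 nm pool, against 1.08% of all genes, and 2 in the 20 nm pool, against 0.521%. Cxcl3, Ccl3, Cxcl2 and Ccl9 led the first set, with differences of 2.90, 2.61, 2.31 and 2.28. Ccl5 and Ccr7 made up the second, with differences of -1.39 and -1.1. Neutrophil markers had a median log2 ratio of 1.1 in the 20 nm pool and 2.51 in the 100 nm pool, and T and NK cell markers 2.02 and 1.85. The highest summed neutrophil level over the 3 arrays of a group was 18.29 with silicate 20 nm and 18.20 with silicate 100 nm. Pericyte and fibroblast markers had medians of 1.27 and 4.74, and lens markers of 0.77 and 1.67. Their part in the split was not tested.

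Each particle group was tested against PBS in 1 limma fit over all 12 arrays, with Benjamini-Hochberg adjustment over all genes. With gold 20 nm, 0 of 44 members passed at an adjusted p of 0.05, and 3 had an unadjusted p under 0.05 (0.651% of all genes were called). With gold 100 nm, 0 members passed, with 3 at an unadjusted p under 0.05 (0.904% of all genes). With silicate 20 nm, Ccl21b alone was called, 0.24 ± 0.05 (SE) higher on 3 of 3 arrays at an adjusted p of 0.0497 (1.43% of all genes were called higher). That call was kept under 4 alternatives and lost under the others run, with an adjusted p from 0.0299 with slide as a replicate block to 0.612 without slide 2. With silicate 100 nm, 0 members passed, with 4 at an unadjusted p under 0.05 (0.9% of all genes). The median member difference was -0.35, -0.46, 0.08 and 0.13 in these 4 comparisons. Without slide 1 these medians were 0.09, 0, 0.73 and 1.13, and without slide 3 those of silicate were -0.52 and -0.36.

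Arrays of the same number share a slide, and with slide as a replicate block more members passed, since that fit measures the spread within slides only. More of all genes passed too, so the shares are given beside the counts. With gold 20 nm and with gold 100 nm, 3 members were then called, Ccl21a higher and Ccl24 and Cxcl2 lower, against 4.09% and 6.19% of all genes. With silicate 20 nm 4 were called, Ccl21a, Ccl21b and Cxcl14 higher and Cxcl2 lower (8% of all genes), and with silicate 100 nm 2, Ccl21a and Cxcl9, both higher (3.67% of all genes). In the mean of the 4 groups the block gave 12, of which 6 were higher (Ccl21a, Ccl21b, Ccl27a, Ccr10, Cxcl9 and Cxcl14) and 6 lower (Ccl24, Ccl28, Ccr1l1, Cxcl2, Cxcl3 and Cxcr1), against 16.8% of all genes higher and 16.8% lower. Cxcl2 had a log2 difference of -1.47 in that fit (adjusted p = 0.00104) although its log2 ratio was under -1 on slide 1 alone. Cxcl3, Ccl24, Ccr1l1 and Cxcr1 were likewise under -1 on slide 1 alone, and Ccl28 was under -1 on no array.

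The mean of the 4 particle groups against PBS gave 5 members higher and 0 lower, against 7.91% and 6.01% of all genes. The fit has no slide term, so arrays that share a slide, and may share a PBS tube, count as independent in its SE and p-values. Ccl21a led with a log2 ratio of 1.15 ± 0.14 (SE), which is 2.21-fold, at an adjusted p of 0.000846, and was higher on 12 of 12 arrays. Ccl21b was 0.20 higher at an adjusted p of 0.000912, also on 12 of 12 arrays. The brighter probe of Cxcl9 was 0.73 higher (adjusted p = 0.0114, 12 of 12 arrays), whereas its dimmer probe gave 0.17 with an adjusted p of 0.851. Ccr10, a receptor of skin-homing T cells and plasma cells, was 0.17 higher (adjusted p = 0.00956, 12 of 12 arrays), and Ccl27a 0.18 higher (adjusted p = 0.0448, 10 of 12 arrays). PBS was in Cy3 on every array, so a dye effect of a probe and a particle effect cannot be told apart in these 5 values. Without slide 1 only Ccl21a was called, without slide 2 no member was, and with slide as a random block Ccl21a alone was called, at an adjusted p of 0.0116. The correlation within slides in the random block fit was 0.488. Without both silicate arrays of slide 3, Cxcl9 was 0.53 higher. Of 7 pigment epithelium and melanocyte markers, 6 were called higher in the same comparison, with a list median of 1.68, and their summed level in PBS was 11.54 to 11.78, 13.06 to 13.19 and 14.69 to 14.81 on slides 1 to 3. It was 13.60 to 16.58, 14.60 to 16.28, 15.04 to 15.29 and 13.46 to 15.92 in the particle pools. Their part in the Ccl21a value was not tested.

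**Figure D4:**
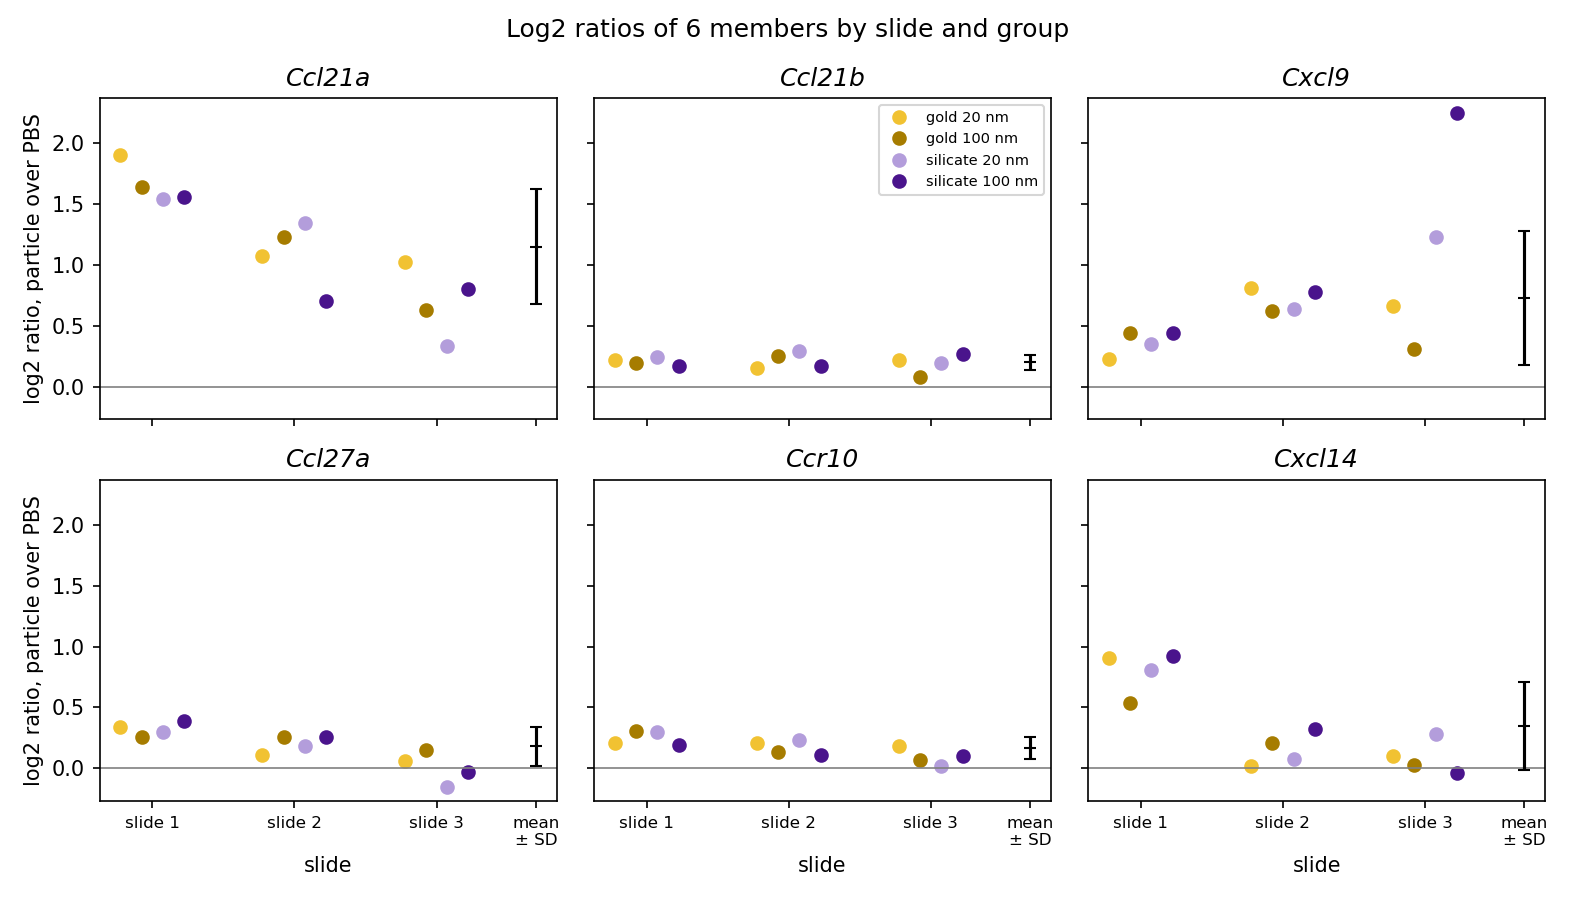
Log2 ratio of particle over PBS (y axis) by slide (x axis) for the 5 called members and Cxcl14, 1 point per array coloured by group, with the mean ± SD over the 12 arrays in black at the right. Ccl21a is above 0 on all 12 arrays and highest on slide 1, Ccl21b and Ccr10 lie between 0.02 and 0.31, and Cxcl9 is highest on the silicate arrays of slide 3.

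Silicate against gold asks whether the material mattered, and the dye effect cancels in it. Each group held the same array position on every slide, so material and position cannot be told apart. No member passed in limma, 0 had an unadjusted p under 0.05, and 0% of all genes were called. Under every alternative run the count of members stayed 0, while over all genes it reached 12 with slide as a random block. The median member difference was 0.59 against 0.02 over all genes, with 37 of 44 members above 0, but the spread over slides was large. This median was 0.17 without the silicate 100 nm array of slide 3, 0.21 without the silicate 20 nm array of slide 3, and 0.29 and 0.33 without the gold 20 nm and gold 100 nm arrays of slide 1. It was 0.04 without slide 3 and -0.08 without both silicate arrays of slide 3, where 27 of 44 members changed sign. Cxcl5 had the largest difference, 2.58 with a 95% interval of -1.30 to 6.45 (adjusted p = 0.883), made up of 1.56 on slide 1, 0.44 on slide 2 and 5.73 on slide 3. Ccl5 gave 2.17 (-0.62 to 4.96) from 1.22, -0.40 and 5.70, and Cxcl10 1.91 (-1.01 to 4.84) from 1.04, -0.43 and 5.12. Silicate lay above gold on all 3 slides for 15 members (34.1%), against 19.1% of all genes. They included 4 ligands of Cxcr2 (Cxcl1, Cxcl2, Cxcl3 and Cxcl5), and for 3 of these the difference on slides 1 and 2 was between 0.08 and 0.29. On those slides Cxcl3 was not above background in any particle pool, and Cxcl2 only in the silicate 20 nm pool of slide 1. Cxcl1 was above background in no gold pool, so the signs of these small differences are uncertain. Ccl2 differed by 0.31, -0.43 and 4.21 on slides 1, 2 and 3, so on slide 2 it went the other way.

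Size was compared as 100 nm against 20 nm over both materials. Size cannot be told apart from position on the slide either. No member passed in limma, 0 had an unadjusted p under 0.05, and 0% of all genes were called. The largest difference in size was 0.59, and 20 of 44 members were above 0, with a median of -0.01. Cxcl10 gave the largest, -0.59, and Ccl5 -0.39.

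The rest of the chemokine system, in 3 lists, held genes that met the same rules. Of all genes, 4.57% met the rule on slide 1 and 6.74% that on slide 3. Of 12 other chemokine system genes tested, 3 (Pf4, Ppbp and Ccrl2) met the rule on slide 1 and 5 that on slide 3. Pf4, the platelet chemokine named Cxcl4 as well, read -5.23, -4.80, -4.77 and -5.05 on slide 1 and 4.49 and 5.77 on the silicate arrays of slide 3. Ppbp, another platelet chemokine and a ligand of Cxcr2, was high only with silicate 100 nm there, at 3.17 against 0.02. In the mean of the 4 groups, Ackr3, a scavenging receptor of Cxcl12, and Rarres2, the chemerin gene, were called higher and none lower. The shares of all genes were 7.91% and 6.01%.

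Genes of chemokine receptor signalling met the rule on slide 1 in 12 of 30 cases and that on slide 3 in 16, which included all 12. Among them were Rac2 and Vav1, and 9 of the 30 stayed within 1 of 0 on all 12 arrays. Grk3, a receptor kinase, was the only gene of this list called in the mean of the 4 groups, higher, against 7.91% of all genes. Of 23 inducers of chemokines, 16 met the rule on slide 1, 15 that on slide 3 and none was called. Il1b, the cytokine, read -5.81, -5.62, -5.35 and -5.60 on slide 1 and 4.37 and 5.79 on the silicate arrays of slide 3, and on slide 2 was 2.21 and 1.87 with silicate but 0.38 and 0.25 with gold. Cd14 and Tlr2, which sense bacterial products, and Cebpb, a transcription factor of myeloid cells, met both rules too.

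By Pearson r of the log2 ratio over the 12 arrays, 4 of the 5 genes most like Ccl2 among 16260 named genes were Cd274 (0.997), Vav1 (0.997), Csf1r (0.997) and Arhgap9 (0.996). For Cxcl10 all 5 were Gbp2 (0.981), Tbc1d5 (0.978), Ly86 (0.977), Gbp3 (0.975) and Vwf (0.975). For Cxcr2 they were Il1r2 (0.995), Igfbp3 (0.994), Srgn (0.994), Retnlg (0.993) and Ltb4r1 (0.993), and for Cxcl12 She (0.945), Acaa1b (0.942), Myoz1 (0.941), Fhl2 (0.939) and Ppp1r3d (0.938). These values describe arrays that share PBS pools and slides.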

How the data were processed

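Total RNA of retina was hybridised to 12 2-colour Agilent arrays. Signal intensity and log10 ratio per spot were made by the authors with Agilent Feature Extraction, version 11.0.1.1 per the file headers and 9.3.2.1 per the submitters' processing notes. The deposited log2 value table follows the log10 ratios (r from 0.94 to 0.994), has column medians from 0.0163 to 0.114, and its centring is unknown. It served as an alternative.

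Here median intensities were background-corrected with normexp (offset 50) and loess-normalized within arrays in limma 3.58.1 under R 4.3.3, with 1377 control spots at weight 0 and outlier spots (149 to 257 per array) left out. Probes above background in either channel on at least 3 arrays were kept, and the brightest kept probe stood for its gene. Levels were scaled between arrays by Aquantile and are open to dye bias across channels. A bound ("at least") sets the bright mean against the higher of the dim signal and the lowest signal above background. Groups came from the labels, and 1 limma fit over the 12 arrays gave 7 two-sided contrasts, adjusted by Benjamini-Hochberg over all genes at 0.05. The number of arrays limits the precision. Symbols and sequences are those of RefSeq, GRCm38.p6, and 6279 of 32334 RefSeq accessions matched no symbol.

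The members and lists were chosen with earlier results of these data known. A member was named with its values if called in any contrast or among the 4 of its role with the widest range. In pathway lists, called genes came first and then those of widest range, at most 4. Same-numbered arrays share a slide per the file headers, and their deviations from the group means correlated at 0.892 to 0.937 on slide 1, 0.0953 to 0.834 on slide 2 and 0.576 to 0.918 on slide 3. The alternatives were other signals, normalization, filters and probes, slide as a block, and leaving out arrays. The fit was tested on simulated data. A few items, among them 1 member and 1 motif, are not reported here, while counts and medians over all members include that member.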

Additional observations from a re-analysis of the deposited data

How the results depend on the processing

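With the replicate block, 3 members were called with gold 20 nm, 3 with gold 100 nm, 4 with silicate 20 nm, 2 with silicate 100 nm and 12 in the mean of the 4 groups, against 4.09%, 6.19%, 8% and 3.67% of all genes and, in the mean, 16.8% higher and 16.8% lower, and it changed no call in silicate against gold or 100 nm against 20 nm. With slide as a random block the counts were 1 for gold 20 nm, 0 for silicate 20 nm and 1 for the mean of the 4 groups. Median centring gave 1 member (Ccl21b) with gold 100 nm and 1 with silicate 100 nm. With Agilent's processed signals 0 members were called with silicate 20 nm and 3 in the mean of the 4 groups. The silicate 20 nm count was also 0 with no filter on dim probes, with every probe tested by itself, with the authors' value table and without both silicate arrays of slide 3, and it was 0 to 0 when single arrays or slides were left out. In the mean of the 4 groups, leaving out single arrays or slides gave 0 to 6 members, with 0 without slide 2 and 1 without slide 1. The causes were not tested. No count of called members and no called log2 ratio reversed, but members that were not called changed sign. Without slide 1, 20 of 44 did so with gold 20 nm, 7 of them over 1 in size, and the median went from -0.35 to 0.09. Without both silicate arrays of slide 3, 27 of 44 did so in silicate against gold, 10 of them over 1 in size, and the median went from 0.59 to -0.08. The counts of members under -1 on slide 1 and over 1 on the silicate arrays of slide 3 ranged from 14 to 27 and from 17 to 28 over 6 alternatives added after the values were seen. Members near background, such as Cxcl2, Cxcl3 and Ccr2 outside the high pools, have only bounds there.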
